A study of Mus musculus with 6 samples.

Results

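RNA sequencing of mouse primary osteoblasts was used to examine 42 genes of the secretory pathway and the unfolded protein response. The genes were listed by name for their known roles in folding, modifying and exporting secreted proteins and in sensing misfolded ones. All 42 were found among the 55471 genes of the count table, Ctage5 under its other symbol Mia2, and all 42 had enough counts to enter the 13826 genes tested.

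Osteoblasts, the cells that lay down bone, were taken from the calvaria (the skull cap) of 3-day-old mice on the C57BL/6 background and cultured for 3 days. Wild type mice (WT) gave 3 libraries, and triple knockout mice (TCKO) gave 3 libraries. TCKO mice carried Prx1-Cre together with floxed alleles of all TET genes (Tet1fl/fl, Tet2fl/fl and Tet3fl/fl), so that Cre, expressed under a limb and skull mesenchyme promoter, removes parts of Tet1, Tet2 and Tet3. TET enzymes oxidise methylated cytosine in DNA. The sources used here do not say whether WT mice carried floxed alleles or Cre, nor whether replicates came from separate animals, so p-values measure the spread between these libraries only.

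Osteoblasts secrete very large amounts of type I collagen, and all of it passes through the endoplasmic reticulum. There, chaperones and disulfide isomerases fold the chains, and hydroxylases modify prolines and lysines before a triple helix forms. COPII vesicles then carry procollagen to the Golgi. When unfolded protein accumulates, the sensors IRE1, PERK and ATF6 start the unfolded protein response. IRE1 splices Xbp1 mRNA, ATF6 is cut to release a transcription factor, and PERK phosphorylates the initiation factor eIF2α, which lowers general translation and favours translation of ATF4. Levels of mRNA do not report on splicing, cleavage or phosphorylation.

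Total counts ranged from 8019999 to 10177214 per library. Of the targeted genes, Tet1 was lower in the libraries labelled TCKO (log2 fold change -0.97 ± 0.16 SE, edgeR adjusted p = 0.00648), Tet2 did not pass (-0.14 ± 0.14, adjusted p = 0.545) and Tet3 was higher (0.51 ± 0.09, adjusted p = 0.00745). Counts cover whole genes, so remaining exons add to them, and every direction rests on the labels. Replicate 3 of each genotype stood apart. Between replicates 1 and 2, the chi-square over its degrees of freedom was 1.69 in WT and 2.04 in TCKO, and for pairs with replicate 3 it was 16.5 to 23.3. TCKO replicate 3 also had 4583 counts of Xist and 0 of Ddx3y, where the other 5 libraries had 1 to 4 and 675 to 1094. The 11 osteoblast markers summed to 40754 to 43599 CPM in WT and 22259 to 37010 CPM in TCKO. Of the 8 tested, 4 were lower (Runx2, Alpl, Col1a1 and Sparc) and 1 was higher (Spp1, log2 fold change 2.62 ± 0.44, edgeR adjusted p = 0.00669). All of these calls were lost with the counts of replicates 1 and 2 summed (lowest edgeR adjusted p = 0.0654, for Alpl). The Spp1 difference (log2 of CPM plus 2) was 3.38 within replicates 1 and 2 and 0.91 within replicate 3. Bglap had 0 to 2 counts and Dmp1 0 to 3.

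Genotype was compared to see whether genes of the secretory machinery differed. Of the 42 genes, 3 were higher in the libraries labelled TCKO and 9 were lower at an adjusted p under 0.05. The 3 higher genes were the chaperone Hsp90b1 and the disulfide isomerases Pdia3 and Pdia4. The 9 lower genes were the collagen-modifying genes P4ha3, Plod3, Crtap and P3h3, the PERK gene Eif2ak3, Atf4 and the genes Chac1, Asns and Herpud1. All were changes under 2-fold, from -0.90 for Chac1 to 0.45 for Hsp90b1 on the log2 scale. These are 7.14% and 21.4% of the 42 genes, against 9.07% called higher and 8.63% called lower among all 13826 tested genes, or 17.7% in either direction. With a fold change over 2 as well, 0 of the 42 genes were called in either direction by edgeR or DESeq2, and 0 were at an unadjusted p, against 3.16% higher and 3.19% lower among all tested genes. The median log2 fold change was -0.07 over the 42 genes and 0.00 over all tested genes.

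**Figure D1:**
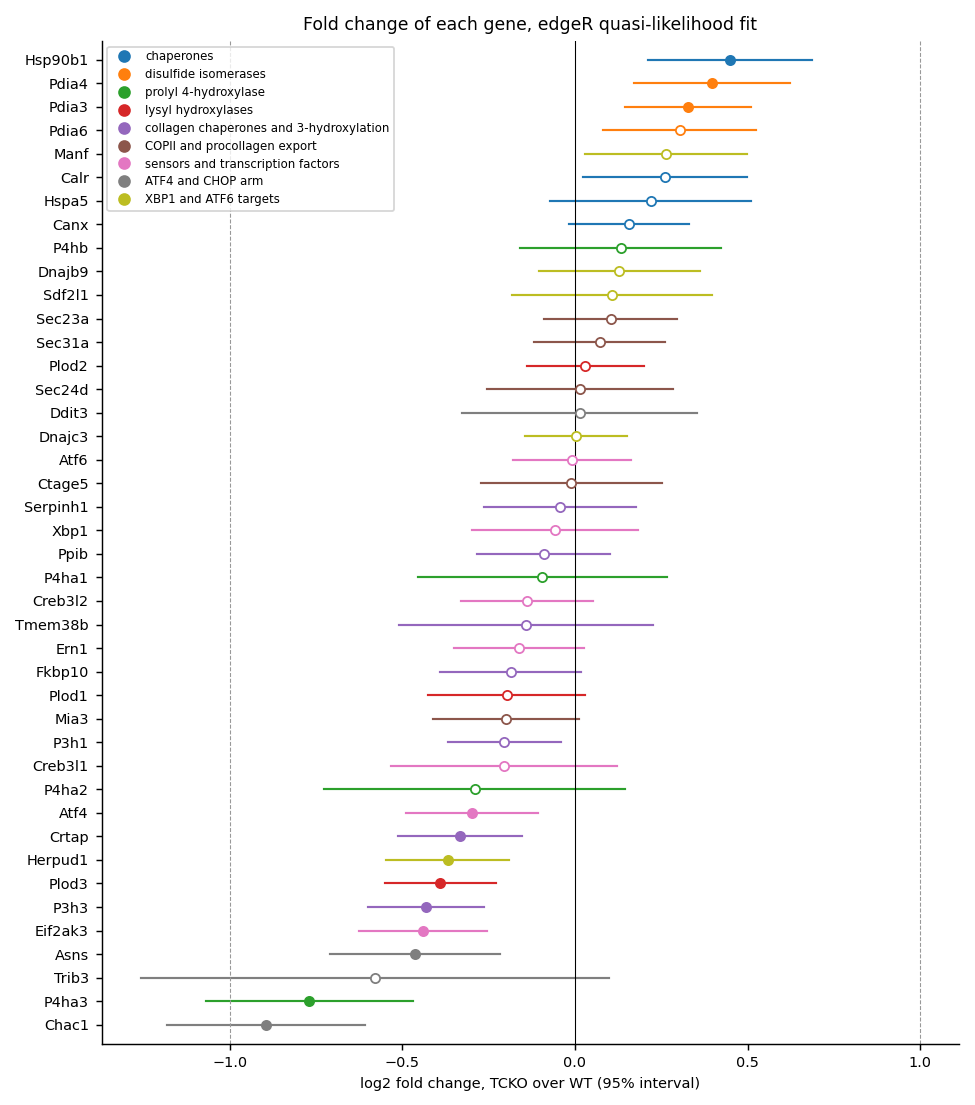
Log2 fold change of each of the 42 genes (TCKO over WT, n = 3 libraries per genotype) with its 95% interval, coloured by role, with filled points for an edgeR adjusted p under 0.05 and dashed lines at 2-fold. Hsp90b1, Pdia4 and Pdia3 sit at the upper end between 0.33 and 0.45, and Chac1 and P4ha3 at the lower end at -0.90 and -0.77.

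The remaining 30 genes did not pass, with log2 fold changes from -0.58 (Trib3) to 0.30 (Pdia6). Counted without adjustment, 16 of the 42 genes had p under 0.05. The share of all tested genes at an unadjusted p under 0.05 is not given here, so unadjusted counts have no background beside them. The genotypes did not overlap in CPM (counts scaled to a common library size, with TMM factors) for 22 of the 42 genes, or 52.4%, against 38.3% of all tested genes. The 12 calls depended on how the near-identical replicates 1 and 2 were counted. With their counts summed within each genotype, which leaves 2 samples against 2, 0 of the 42 genes were called by edgeR and 8 passed before adjustment. Adding a replicate block to the sums called P4ha3 and Chac1. The calls of P4ha3, P3h3, Eif2ak3 and Chac1 held in all 6 fits that left out 1 library. In bulk RNA, a lower level per cell and fewer cells of a type cannot be told apart.

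**Figure D2:**
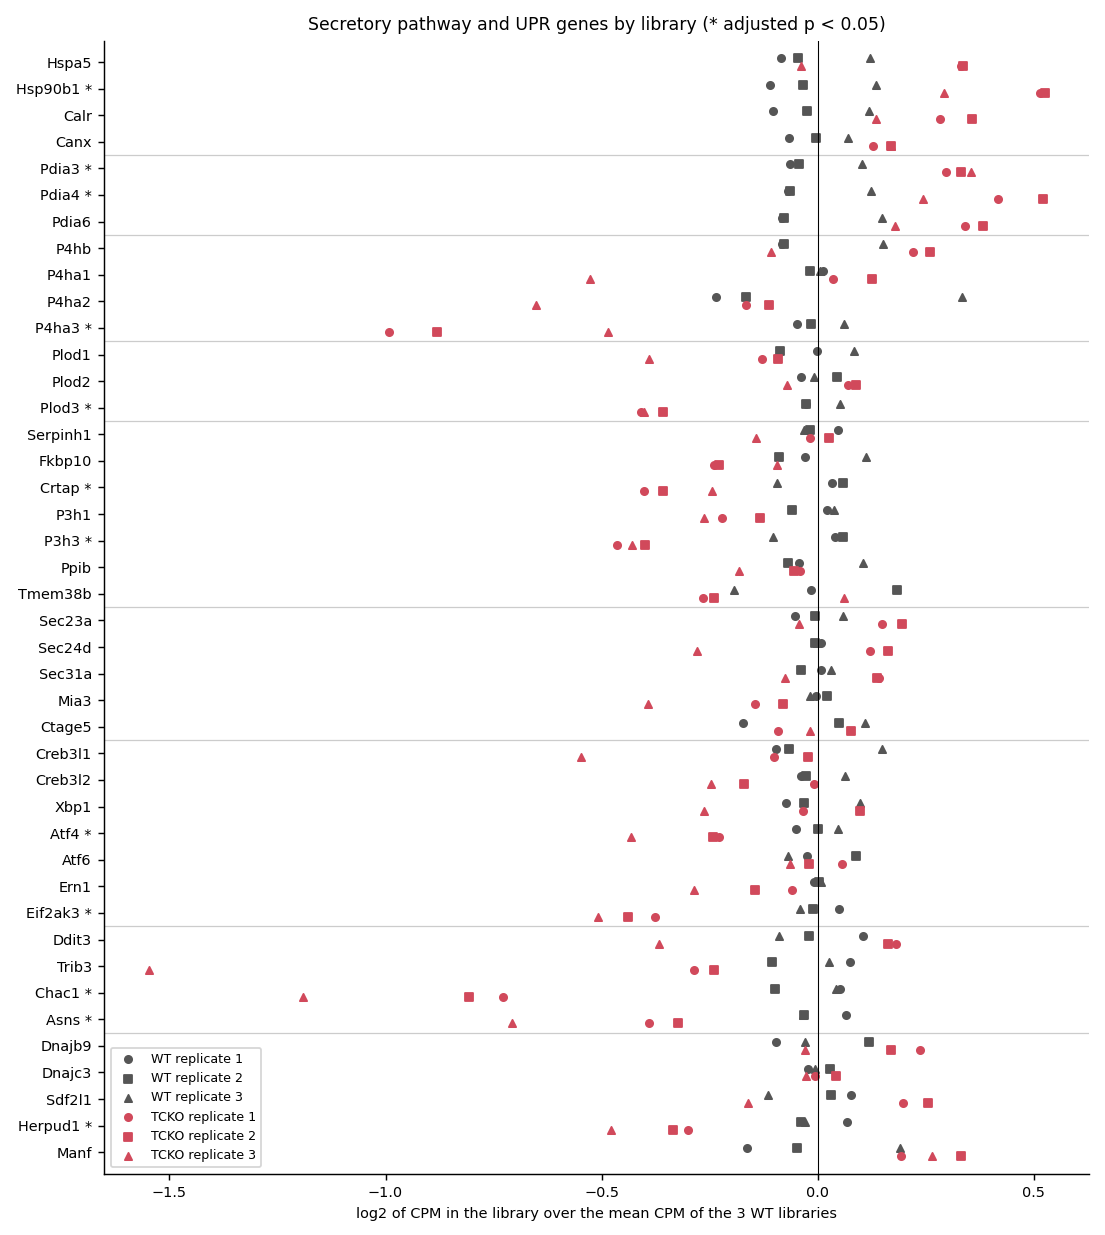
CPM of each of the 42 genes in each library as log2 over the mean of the 3 WT libraries, with grey for WT, red for TCKO, and circles, squares and triangles for replicates 1, 2 and 3. Lines separate the role groups and a star marks an edgeR adjusted p under 0.05. Triangles of TCKO replicate 3 sit apart from TCKO replicates 1 and 2 for genes such as Trib3, P4ha2 and Creb3l1.

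Chaperones of the endoplasmic reticulum bind nascent chains and hold them until they fold. All 4 had positive log2 fold changes over the 6 libraries, with a median of 0.24 (0.39 within replicates 1 and 2 and 0.06 within replicate 3, where Hspa5 was negative), and 1 of them, Hsp90b1, rose. Hsp90b1 (ENSMUSG00000020048, chromosome 10, 86690209 to 86705509 in GRCm38) encodes GRP94, the HSP90 chaperone of this compartment, and had 639, 674 and 758 CPM in WT replicates 1, 2 and 3 and 986, 993 and 845 CPM in the libraries labelled TCKO. Every library labelled TCKO was above every WT library, replicate 3 by least. The mean rose from 690.2 ± 61.0 to 942 ± 83.5 CPM (SD over 3 libraries each), for a log2 change of 0.45 ± 0.10 by edgeR (adjusted p = 0.0223). Calr (ENSMUSG00000003814, chromosome 8, 84841850 to 84846934), which encodes the lectin chaperone calreticulin and had the highest level per length of the 4 (1991 TPM over all libraries), had 1765, 1863 and 2059 CPM in WT and 2306, 2426 and 2080.0 CPM in the libraries labelled TCKO. The genotypes did not overlap, although WT replicate 3 lay close below TCKO replicate 3, and its log2 fold change of 0.26 ± 0.10 did not pass (edgeR adjusted p = 0.123). Hspa5, the gene of BiP, which also holds the stress sensors inactive, had a log2 fold change of 0.22 ± 0.13 (adjusted p = 0.275, 95% interval -0.07 to 0.51), and calnexin (Canx) one of 0.16 ± 0.08 (adjusted p = 0.197).

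Disulfide isomerases form and rearrange disulfide bonds. Of the 3 measured as a group, Pdia3 and Pdia4 rose and Pdia6 did not pass, with a median of 0.33. Pdia3 (ENSMUSG00000027248, chromosome 2, 121413775 to 121438687), the isomerase that works with calnexin and calreticulin, had 553, 561 and 621 CPM in WT and 710.1, 728 and 739.7 CPM in the libraries labelled TCKO. Its genotypes were separated in every replicate, with a log2 fold change of 0.33 ± 0.08 by edgeR (adjusted p = 0.0264). Pdia4 (ENSMUSG00000025823, chromosome 6, 47796141 to 47813430) had 288, 289 and 329 CPM in WT and 403, 433 and 357 CPM in the libraries labelled TCKO, where replicate 3 was the lowest. Its log2 fold change was 0.40 ± 0.10 (edgeR adjusted p = 0.0283). Pdia6 had a log2 fold change of 0.30 ± 0.10 (adjusted p = 0.0661 by edgeR and 0.0447 by DESeq2).

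The 3 higher calls were each lost without any one of replicates 1 and 2. Without WT replicate 1, WT replicate 2, TCKO replicate 1 and TCKO replicate 2 the edgeR adjusted p was 0.101, 0.0968, 0.0913 and 0.0901 for Hsp90b1. In the same order it was 0.121, 0.117, 0.0838 and 0.0946 for Pdia3, and 0.119, 0.118, 0.0970 and 0.108 for Pdia4. With replicates 1 and 2 summed it was 0.298, 0.307 and 0.312. The direction was kept in all of these fits.

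Promoter sequences were read for what these genes share. The ER stress response element (ERSE), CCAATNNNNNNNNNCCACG, is the known site of ATF6 and XBP1 with the CCAAT-binding factor NF-Y. RefSeq promoters (250 bases before to 50 after the start site, GRCm38.p6) were given for 36 of the 42 genes. Searched on both strands, the element was in 6 of these 36, all 4 chaperones, Pdia6 and Dnajc3, and in 37 of 27025 genes with a promoter, or 0.137%. The matches are shown with 10 bases on each side, 5′ to 3′ on the strand of the gene, with the fixed letters of the element in capitals, which read CGTGG and ATTGG where it lies on the other strand. The windows are chr2:34772015-34772053 on the plus strand for Hspa5, chr8:84847065-84847103 on the minus strand for Calr, chr10:86705523-86705666 on the minus strand for Hsp90b1 with 2 elements, chr11:50325790-50325828 on the minus strand for Canx, chr12:17266481-17266519 on the plus strand for Pdia6 and chr14:118937817-118937855 on the plus strand for Dnajc3.
Hspa5: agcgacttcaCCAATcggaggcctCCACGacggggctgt
Hsp90b1: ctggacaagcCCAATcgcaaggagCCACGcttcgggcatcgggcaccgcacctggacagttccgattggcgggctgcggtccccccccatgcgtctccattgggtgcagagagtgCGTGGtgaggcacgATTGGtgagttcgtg
Calr: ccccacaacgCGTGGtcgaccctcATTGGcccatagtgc
Canx: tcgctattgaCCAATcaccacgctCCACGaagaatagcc
Pdia6: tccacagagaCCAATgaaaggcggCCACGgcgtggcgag
Dnajc3: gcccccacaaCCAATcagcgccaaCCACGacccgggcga

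All 7 elements lay upstream of the RefSeq start site, their first bases between -212 and -65 relative to it. Of the 6 genes that carry it, Hsp90b1, with 2 elements in the window, was called higher and the other 5 did not pass in the main fit. Hspa5, Calr and Pdia6 did pass in at least 1 alternative fit (lowest edgeR adjusted p = 0.0269, 0.0349 and 0.0189). Canx and Dnajc3 passed in none. Dnajc3, the gene of a BiP co-chaperone, had 186, 192 and 188 CPM in WT and 188, 194 and 185 CPM in those labelled TCKO, with a fold change of 0.00 ± 0.06 on the log2 scale (adjusted p = 0.985). Outside the 42 genes, 11 tested genes carried the element, of which 3 were called higher and 1 lower, with a median log2 fold change of 0.15. Among all 9824 tested genes with a promoter, 9.45% were higher and 9.10% lower, and the median was -0.01.

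Prolyl 4-hydroxylase makes the hydroxyprolines that stabilise the collagen helix. Its catalytic α subunits are encoded by P4ha1, P4ha2 and P4ha3 and its β subunit, also a disulfide isomerase, by P4hb. Of these 4 genes 1 fell, P4ha3, and the median was -0.19. P4ha3 (ENSMUSG00000051048, chromosome 7, 100285520 to 100319699) had 137, 140.0 and 148 CPM in WT and 71.1, 76.8 and 101 CPM in the libraries labelled TCKO. All libraries labelled TCKO were well below WT, with TCKO replicate 3 the nearest to it. The mean went from 141 ± 5.57 to 83.0 ± 15.9 CPM (SD over 3 libraries each), for a log2 change of -0.77 ± 0.13 by edgeR (adjusted p = 0.00647, and 0.112 with replicates 1 and 2 summed). P4hb (ENSMUSG00000025130, chromosome 11, 120560298 to 120573253), the most abundant of the 4 per length at 1641 TPM, had 1535, 1540.4 and 1806 CPM in WT and 1895, 1949 and 1508 CPM in the libraries labelled TCKO. TCKO replicates 1 and 2 were the highest libraries and TCKO replicate 3 the lowest, and the fold change of 0.13 ± 0.13 did not pass (adjusted p = 0.515). P4ha1 and P4ha2 had log2 fold changes of -0.09 ± 0.16 and -0.29 ± 0.19 (adjusted p = 0.721 and 0.335), with P4ha1 at 0.09 without TCKO replicate 3.

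Lysyl hydroxylases modify collagen lysines, which later take part in crosslinks, and the product of Plod3 also glycosylates them. Of the 3 genes, Plod3 fell and the median was -0.20. Plod3 (ENSMUSG00000004846, chromosome 5, 136987019 to 136996648) had 539.8, 539.6 and 569.7 CPM in WT and 414, 429 and 416 CPM in the libraries labelled TCKO. Both genotypes varied little, and the lowest WT library stood clearly above the highest one labelled TCKO. Its log2 fold change was -0.39 ± 0.07 (edgeR adjusted p = 0.00836), which became 0.0504 once TCKO replicate 1 was left out and 0.167 with replicates 1 and 2 summed. Plod3 shares 529 exonic bases with Znhit1 on the opposite strand, which had 1629 counts over all libraries against 25350 for Plod3. Plod1 had a log2 fold change of -0.20 ± 0.10 (adjusted p = 0.209), and Plod2, whose enzyme acts on the telopeptides, one of 0.03 ± 0.07 (adjusted p = 0.812, 95% interval -0.14 to 0.20).

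The collagen chaperones and the prolyl 3-hydroxylation complex form a group of 7. All 7 had negative log2 fold changes over the 6 libraries, with a median of -0.19, and 2 of them fell, Crtap and P3h3. The sign was the same within replicates 1 and 2 and within replicate 3 for 5 of the 7, the exceptions being Ppib and Tmem38b. Crtap (ENSMUSG00000032431, chromosome 9, 114375134 to 114390675), a partner of prolyl 3-hydroxylase mutated in recessive osteogenesis imperfecta, had 142, 145 and 130.2 CPM in WT and 105, 108 and 117 CPM in the libraries labelled TCKO. The gap between the genotypes was narrowest in replicate 3, and the log2 fold change was -0.33 ± 0.08 (edgeR adjusted p = 0.0234). P3h3 (ENSMUSG00000023191, chromosome 6, 124841089 to 124857752), a related prolyl 3-hydroxylase family gene, had 174, 176 and 157 CPM in WT and 123, 128 and 126 CPM in the libraries labelled TCKO, with no overlap. Its log2 fold change was -0.43 ± 0.07 (edgeR adjusted p = 0.00648). P3h1, which encodes the catalytic subunit that pairs with the Crtap product, had a log2 fold change of -0.21 ± 0.07 and did not pass (adjusted p = 0.0856). Without WT replicate 1, WT replicate 2, TCKO replicate 1 and TCKO replicate 2, Crtap had an edgeR adjusted p of 0.0949, 0.0992, 0.0965 and 0.0936. With replicates 1 and 2 summed it was 0.285 for Crtap and 0.147 for P3h3.

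Serpinh1 (ENSMUSG00000070436, chromosome 7, 99345376 to 99353239) encodes HSP47, the chaperone that binds folded procollagen, and had the highest level per length of the 42 genes, at 4555 TPM over all libraries. It had 4231, 4048 and 4008 CPM in WT and 4044, 4170.1 and 3708 CPM in the libraries labelled TCKO. The genotypes overlapped, with a log2 fold change of -0.04 ± 0.10 (adjusted p = 0.792, 95% interval -0.26 to 0.18). The collagen peptidyl-prolyl isomerases Fkbp10 and Ppib had log2 fold changes of -0.19 ± 0.09 and -0.09 ± 0.08 (adjusted p = 0.190 and 0.499), and Tmem38b, the gene of an ion channel of the endoplasmic reticulum, one of -0.14 ± 0.16 (adjusted p = 0.583). Ppib shares 825 exonic bases with Snx22 on the opposite strand, which had 38 counts over all libraries against 2736 for Ppib.

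COPII coat proteins bud the vesicles that leave the endoplasmic reticulum, and TANGO1 (Mia3) and its partner (Ctage5) load procollagen into them. None of these 5 genes was called by edgeR or by DESeq2, with 0 at an unadjusted p under 0.05 and a median log2 fold change of 0.01. Sec31a (ENSMUSG00000035325, chromosome 5, 100361649 to 100416234), the most abundant of them per length at 85.9 TPM, had 241, 233 and 245 CPM in WT and 264, 264 and 227 CPM in the libraries labelled TCKO. TCKO replicates 1 and 2 lay above WT and TCKO replicate 3 below it, and the log2 fold change was 0.07 ± 0.08 (adjusted p = 0.592, 95% interval -0.12 to 0.26). The other 4 ranged from -0.20 ± 0.09 for Mia3 (adjusted p = 0.176) to 0.10 ± 0.08 for Sec23a (adjusted p = 0.438). Sec24d, whose product selects cargo, was at 0.01 ± 0.12, and Ctage5 at -0.01 ± 0.11.

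Of the 7 stress sensors and transcription factors, 2 fell, Eif2ak3 and Atf4. Over the 6 libraries all 7 log2 fold changes were negative, with a median of -0.16, but the median was -0.06 within replicates 1 and 2 and -0.36 within replicate 3. The sign was the same in both sets for 4 of the 7. Within replicates 1 and 2, Xbp1 (0.08) and Creb3l1 (0.02) were positive. Eif2ak3 (ENSMUSG00000031668, chromosome 6, 70844515 to 70905245), the PERK gene, had 43.1, 41.3 and 40.5 CPM in WT and 32.1, 30.7 and 29.3 CPM in the libraries labelled TCKO. No library of one genotype reached the range of the other. The mean fell from 41.6 ± 1.34 to 30.7 ± 1.40 CPM (SD over 3 libraries each), for a log2 change of -0.44 ± 0.08 by edgeR (adjusted p = 0.00888, and 0.134 with replicates 1 and 2 summed). Atf4 (ENSMUSG00000042406, chromosome 15, 80255184 to 80257541), a transcription factor of amino acid metabolism that osteoblasts need for collagen synthesis, had 428, 443 and 458 CPM in WT and 378, 374 and 328 CPM in the libraries labelled TCKO. The genotypes did not overlap, and TCKO replicate 3 was the lowest. Its log2 fold change was -0.30 ± 0.08 (edgeR adjusted p = 0.0428). This call was the closest to the threshold, and was lost with upper-quartile scaling (adjusted p = 0.0509), with replicates 1 and 2 summed (0.258) and without any one library but TCKO replicate 3. Without WT replicates 1, 2 and 3 the adjusted p was 0.107, 0.137 and 0.0602, and without TCKO replicates 1 and 2 it was 0.0915 and 0.0997.

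The other sensors did not pass. Ern1 (ENSMUSG00000020715, chromosome 11, 106394650 to 106487852), the IRE1 gene, had 52.9, 53.3 and 53.5 CPM in WT and 51.0, 48.1 and 43.6 CPM in the libraries labelled TCKO. WT libraries were nearly equal and all above those labelled TCKO, with a log2 fold change of -0.16 ± 0.08 (adjusted p = 0.215). Xbp1 (ENSMUSG00000020484, chromosome 11, 5520659 to 5525893), the mRNA that IRE1 splices, had 165, 169.6 and 185 CPM in WT and 169, 186 and 144 CPM in the libraries labelled TCKO, and the genotypes overlapped (-0.06 ± 0.10, adjusted p = 0.741). Atf6 (ENSMUSG00000026663, chromosome 1, 170704674 to 170867771) had 109, 118 and 106 CPM in WT and 116, 109.6 and 106 CPM in the libraries labelled TCKO, also with overlap (-0.01 ± 0.07, adjusted p = 0.95). The 95% intervals of the log2 fold change were -0.35 to 0.03 for Ern1, -0.30 to 0.18 for Xbp1 and -0.18 to 0.16 for Atf6, so changes over 2-fold lay outside them.

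Creb3l1 and Creb3l2 encode membrane-bound transcription factors that are cut like ATF6, the first needed for bone collagen and the second for cartilage secretion. Creb3l1 (ENSMUSG00000027230, chromosome 2, 91982328 to 92024502) had 148, 151 and 175 CPM in WT and 147, 156 and 108 CPM in the libraries labelled TCKO. TCKO replicates 1 and 2 lay close to WT replicates 1 and 2, and TCKO replicate 3 was the lowest library where WT replicate 3 was the highest (-0.21 ± 0.14, adjusted p = 0.363). Creb3l2 (ENSMUSG00000038648, chromosome 6, 37327255 to 37442146) had 186, 187 and 199.5 CPM in WT and 189.7, 169.6 and 161 CPM in the libraries labelled TCKO, with overlap (-0.14 ± 0.08, adjusted p = 0.294).

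Genes downstream of ATF4 and CHOP gave the lowest median of the role groups, -0.52 over 4 genes (-0.31 within replicates 1 and 2 and -0.92 within replicate 3), and Chac1 and Asns fell. Chac1 (ENSMUSG00000027313, chromosome 2, 119351229 to 119354381), which encodes an enzyme that degrades glutathione, had 84.1, 75.8 and 83.5 CPM in WT and 49.0, 46.4 and 35.6 CPM in the libraries labelled TCKO. Every library labelled TCKO was far below WT, replicate 3 most of all. The mean fell from 81.2 ± 4.63 to 43.6 ± 7.11 CPM (SD over 3 libraries each), for a log2 change of -0.90 ± 0.12 by edgeR (adjusted p = 0.00285, and 0.0518 with replicates 1 and 2 summed). Asns (ENSMUSG00000029752, chromosome 6, 7675169 to 7693254), the gene of asparagine synthetase, had 152, 142 and 142 CPM in WT and 111, 116 and 89.0 CPM in the libraries labelled TCKO. The genotypes were apart in every replicate, with a log2 fold change of -0.46 ± 0.11 by edgeR (adjusted p = 0.0221). The Asns call was lost without WT replicate 1, WT replicate 2 or TCKO replicate 1 (edgeR adjusted p = 0.0904, 0.0724 and 0.0590) and with replicates 1 and 2 summed (0.157).

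Trib3, a pseudokinase gene induced by ATF4 and CHOP, had 106, 93.2 and 102 CPM in WT and 82.2, 84.9 and 34.3 CPM in the libraries labelled TCKO. All libraries labelled TCKO were below WT, but TCKO replicate 3 was far below the other 2, and the log2 fold change of -0.58 ± 0.29 did not pass (adjusted p = 0.216). Ddit3 (ENSMUSG00000025408, chromosome 10, 127290774 to 127296288) encodes CHOP, the factor linked to cell death under lasting stress, and had 72.9, 66.9 and 63.8 CPM in WT and 76.9, 75.9 and 52.6 CPM in the libraries labelled TCKO. TCKO replicates 1 and 2 were the highest libraries and TCKO replicate 3 the lowest (0.01 ± 0.15, adjusted p = 0.962, 95% interval -0.33 to 0.35). Ddit3 shares 68 exonic bases with Mars on the opposite strand, a gene with higher counts.

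The C/EBP-ATF element, TGATGNAAN, is the known type of site that ATF4 binds with C/EBP proteins. On either strand it was in the promoters of 4 of the 36 genes with a promoter, Chac1, Asns, Herpud1 and Trib3, and in 1215 of 27025 genes, or 4.5%. Of these 4, Trib3 did not pass, and its match lay after the RefSeq start site, at bases 13 to 21 from it. Chac1, Asns and Herpud1 were called lower. Their matches are shown with 10 bases on each side, 5′ to 3′ on the strand of the gene, with the fixed letters of the element in capitals, for Chac1 and Herpud1 in the reverse complement. They are chr2:119351038-119351066 on the plus strand for Chac1, chr6:7693214-7693242 on the minus strand for Asns and chr8:94386306-94386334 on the plus strand for Herpud1, all upstream of the RefSeq start site in GRCm38.p6.
Chac1: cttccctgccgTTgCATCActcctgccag
Asns: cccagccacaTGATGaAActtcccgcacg
Herpud1: accacggcgggTTgCATCAgcccgcaccc

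Outside the 42 genes, 263 tested genes had this element in the promoter. Of these, 45 were called lower (17.1%) and 19 higher (7.22%), with a median log2 fold change of -0.14, beside 9.10% lower and 9.45% higher among all tested genes with a promoter. A match is a string of letters and not a bound site, and binding was not measured.

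Targets of XBP1 and ATF6 form the last group of 5, with a median of 0.11. Herpud1 (ENSMUSG00000031770, chromosome 8, 94386438 to 94395377), a membrane protein gene of ER-associated degradation, fell, and was also the most abundant of them per length (117 TPM). It had 117, 109 and 109 CPM in WT and 90.6, 88.4 and 80.1 CPM in the libraries labelled TCKO. Its genotypes did not overlap, with a log2 fold change of -0.37 ± 0.08 by edgeR (adjusted p = 0.0155). Without WT replicate 1, WT replicate 2 and TCKO replicate 2 the edgeR adjusted p was 0.0742, 0.0541 and 0.0548, and with replicates 1 and 2 summed 0.167. The other 4 had log2 fold changes at or above 0 and did not pass. These were the BiP co-chaperone genes Dnajb9 (0.13) and Dnajc3 (0.00), Sdf2l1 (0.11), whose product works with BiP and its co-chaperones, and Manf (0.26, adjusted p = 0.114), a secreted stress protein gene that shares 146 exonic bases with Dcaf1 on the opposite strand.

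Summed over each role group as TPM (counts per length, scaled to an equal total in every library), the groups differed in direction. Chaperones summed to 3741, 3878 and 4163 TPM in WT and 4845, 4825 and 4179 TPM in the libraries labelled TCKO, and disulfide isomerases to 1089, 1089 and 1194 against 1417, 1431 and 1349 TPM. For both, the libraries labelled TCKO were the higher ones, though WT and TCKO replicate 3 nearly met for the chaperones. Lysyl hydroxylases summed to 474, 474 and 478 TPM in WT and 391, 389.6 and 375 TPM in the libraries labelled TCKO, and the ATF4 and CHOP arm to 564, 508 and 512 against 426, 415 and 278 TPM. Both sums were lower in every library labelled TCKO. All 42 genes together held 15608, 15406 and 15886 TPM in WT and 16418, 16359.5 and 14548 TPM in the libraries labelled TCKO, where the genotypes overlapped. These sums are descriptions and were not tested, and abundant genes such as Serpinh1 and Calr weigh most in the sums of their groups.

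The collagens that pass through this machinery were set against it. The 9 fibrillar collagen genes summed to 16551, 15877 and 15219.9 TPM in WT and 10487, 10261 and 6921 TPM in the libraries labelled TCKO. The 14 genes of prolyl and lysyl hydroxylation and the collagen chaperones summed to 8518, 8215 and 8291 and 8109, 8092 and 7349.8 TPM. The ratio of collagen to machinery was 1.94, 1.93 and 1.84 in WT, compared with 1.29, 1.27 and 0.942 under the TCKO label. The collagen sum thus differed between the genotypes by a larger factor than the machinery sum, and both were lowest in TCKO replicate 3. Chondrocyte markers summed to 6209 to 8059 CPM in WT and 679 to 959 CPM in TCKO, with 6 of 6 called lower and none at 0. Only Col2a1 and Acan kept their calls with replicates 1 and 2 summed. Most of that sum was Col2a1, itself one of the 9 collagens, at 5728 to 7539 CPM in WT and 598 to 843 CPM in TCKO. Macrophage and blood markers summed to 386 to 690 and 154 to 525 CPM, with 2 of 5 lower (Csf1r and Adgre1). Most of that sum was Lyz2, at 325 to 616 and 131 to 488 CPM, which did not pass (edgeR adjusted p = 0.482). Muscle markers summed to 6.49 to 20 and 34.8 to 77.9 CPM, with 1 of 2 tested higher. This was Acta1, at 3.39 to 11.2 and 29.5 to 71.2 CPM, a call lost with replicates 1 and 2 summed (edgeR adjusted p = 0.0870). Des did not pass (edgeR adjusted p = 0.285), and Myod1 and Myog stayed at or under 2.42 CPM in every library. Endothelial markers stayed at or under 2.24 CPM, adipocyte markers at or under 4.24 CPM with Adipoq and Plin1 at 0 in all libraries, and plasma cell markers at or under 0.605 CPM. The part of the cell types in these differences was not tested.

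**Figure D3:**
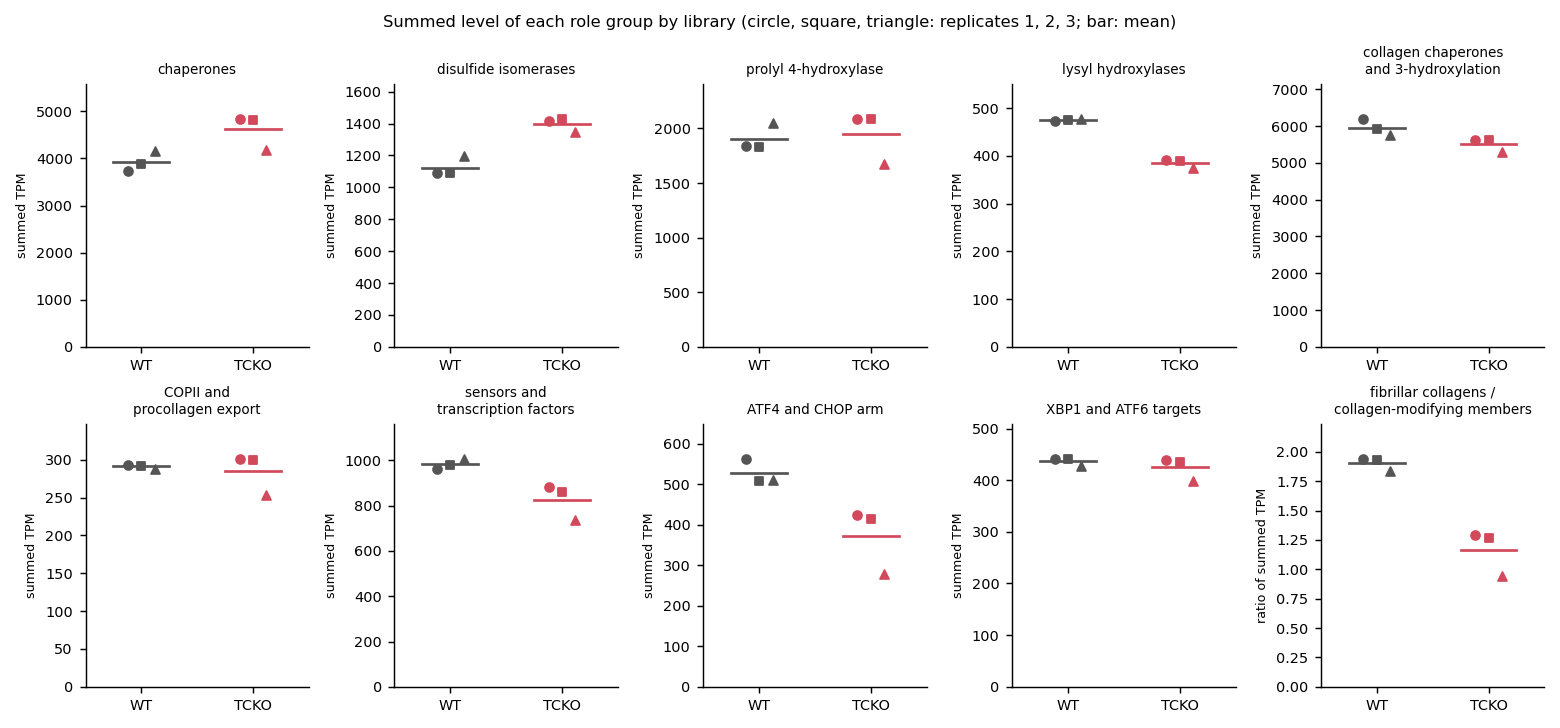
Summed TPM of each role group in each library, and in the last panel the ratio of fibrillar collagen TPM to the TPM of the collagen-modifying genes, with circles, squares and triangles for replicates 1, 2 and 3 and a bar at the mean of 3 libraries. Disulfide isomerases lie between 1089 and 1194 TPM in WT and between 1349 and 1431 TPM in TCKO, and the ratio between 1.84 and 1.94 in WT and between 0.942 and 1.29 in TCKO.

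Because replicate 3 stood apart, the genotype difference of each gene was also taken within replicates 1 and 2 and within replicate 3, as log2 of CPM plus 2. Replicate 3 is 1 library per genotype, so these values carry no test. The sign was the same in both sets for 25 of the 42 genes (59.5%), beside 69.1% of all tested genes. The median of the 42 genes was 0.02 within replicates 1 and 2 and -0.26 within replicate 3. Genes that differed in sign included Hspa5 (0.40 and -0.16), P4hb (0.32 and -0.26), P4ha2 (0.06 and -0.95) and Creb3l1 (0.02 and -0.69). Trib3 had the same sign in both but very unequal values, -0.24 and -1.52. For each of the 12 called genes both sets gave one sign, which calling favours. Chac1 was at -0.72 and -1.19, P4ha3 at -0.89 and -0.54, Eif2ak3 at -0.40 and -0.44, and Hsp90b1 at 0.59 and 0.16. TCKO replicate 3 differs from WT replicate 3 in Xist and Ddx3y as well as in its label, and the part of this in the values was not tested.

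**Figure D4:**
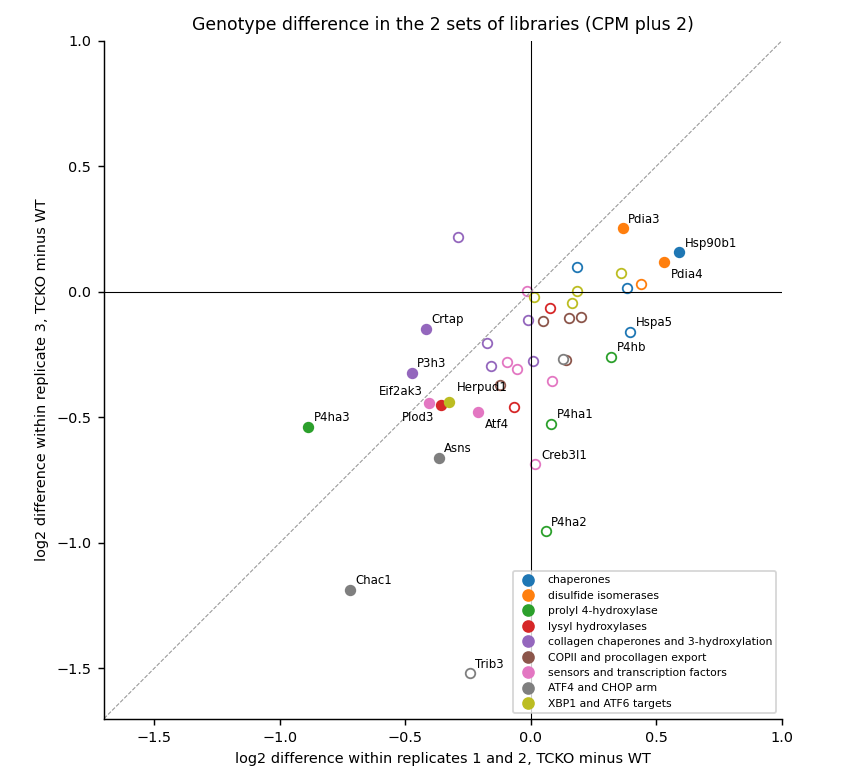
Genotype difference of each of the 42 genes (log2 of CPM plus 2, TCKO minus WT) within replicates 1 and 2 on the x axis and within replicate 3 on the y axis, coloured by role, filled where the edgeR adjusted p over all 6 libraries was under 0.05, with a dashed line of equal values. Most points lie under the dashed line, Trib3 and P4ha2 farthest.

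Other genes of the pathway were taken from lists of 164 genes, of which 157 were tested, 10 were called higher and 20 lower. Among all tested genes 9.07% were higher and 8.63% lower, and the counts of each list below are to be read beside these shares. With replicates 1 and 2 summed, 2 of the 157 were higher (Derl3 and Adamts14) and 4 lower (Col2a1, Col11a2, Col11a1 and Loxl4), and the other 24 calls were lost. The fibrillar collagens held 1 of the higher and 5 of the lower calls, the other collagen enzymes 3 and 3, and the ATF4 targets 0 and 7. Of 27 folding enzymes and cofactors of the endoplasmic reticulum, 2 were higher and 3 lower, with a median of -0.08. Creld2, an isomerase-like stress gene, rose (0.42 ± 0.09, edgeR adjusted p = 0.0166). The peptidyl-prolyl isomerase genes Fkbp14, Ppic and Fkbp9 fell (-0.54 ± 0.09, -0.50 ± 0.11 and -0.31 ± 0.07, edgeR adjusted p = 0.00561, 0.0168 and 0.0228). The call of Creld2 was lost without WT replicates 1 or 2 or TCKO replicates 1 or 2 (adjusted p = 0.0523 to 0.0714), that of Ppic without WT replicates 1 or 2 or TCKO replicates 1 or 2 (adjusted p = 0.0637 to 0.0746) and that of Fkbp9 without WT replicates 1 or 2 or TCKO replicates 1 or 2 (adjusted p = 0.0803 to 0.103).

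Of 16 genes of ER-associated degradation, which extracts misfolded proteins, 2 were higher and 0 lower by edgeR (1 lower by DESeq2 and 1 with the replicate block), and 3 had an unadjusted p under 0.05. Counts of Derl3, a channel component gene, were 3, 3 and 3 in WT, compared with 21, 29 and 20 under the TCKO label. Few counts lay behind WT, and the ratio of summed counts, scaled for library size, was 8.19 with an exact 95% counting interval of 4.08 to 18.7 (edgeR adjusted p = 0.00205, and 0.0423 with replicates 1 and 2 summed). Vcp, the gene of the ATPase that pulls proteins out, was higher by 0.29 ± 0.08 (adjusted p = 0.0385), a call lost without WT replicates 1 or 2 or TCKO replicates 1, 2 or 3 (adjusted p = 0.0539 to 0.15). Of 23 translocon, signal peptidase and oligosaccharyltransferase genes, 1 was higher, Spcs3, at 0.50 ± 0.13 (adjusted p = 0.0375), a call lost without WT replicates 1 or 2 or TCKO replicates 1 or 2 (adjusted p = 0.127 to 0.142). Of 10 further stress sensor and eIF2α pathway genes, 0 were called by edgeR or DESeq2 and 2 had an unadjusted p under 0.05.

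Of 23 further COPII and retrieval genes, 1 was higher and 2 lower. Sec24b, a cargo adaptor gene, was at 0.29 ± 0.07 (adjusted p = 0.0223), a call lost without WT replicates 1 or 2 or TCKO replicates 1 or 2 (adjusted p = 0.0581 to 0.0909). Sec16b, an exit site scaffold gene, fell by 1.25 on the log2 scale (adjusted p = 0.0188, lost without TCKO replicate 2 at 0.0515). Counts of Sec31b, a minor coat gene, were 12, 12 and 12 in WT, compared with 6, 2 and 4 under the TCKO label, with an edgeR adjusted p = 0.0394 that was lost whichever library was omitted (0.0560 to 0.123) and a DESeq2 adjusted p of 0.132.

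Targets of ATF4 outside the 42 genes numbered 36. None was higher and 7 were lower (19.4%), beside 9.07% higher and 8.63% lower among all tested genes. The list was made with earlier results of these data known, so these shares are a description and not a test. Of the 36, 32 had negative log2 fold changes and their median was -0.20, beside 0.00 over all tested genes. The median of the 36 was -0.07 within replicates 1 and 2 and -0.56 within replicate 3, which is 1 library per genotype. Summing replicates 1 and 2 kept none of the 7 calls. With the replicate block 9 were lower and 1 higher. Vldlr, a lipoprotein receptor gene, had 57.9, 63.1 and 50.3 CPM in WT and 35.3, 33.3 and 21.1 CPM in the libraries labelled TCKO (-0.94 ± 0.19, edgeR adjusted p = 0.0130). Atf5, a stress transcription factor gene, had 609, 579 and 523 CPM in WT and 349, 343 and 224 CPM in the libraries labelled TCKO (-0.90 ± 0.17, adjusted p = 0.00947). For both, the genotypes did not overlap and TCKO replicate 3 was the lowest library. Pycr1, of proline synthesis, and Slc7a5, an amino acid transporter gene, fell by 0.76 and 0.63 on the log2 scale (adjusted p = 0.0268 and 0.0136). The call of Pycr1 was lost without WT replicates 1, 2 or 3 or TCKO replicate 1 (adjusted p = 0.0508 to 0.0786), that of Vldlr without WT replicates 1 or 2 (adjusted p = 0.0514 to 0.0615) and that of Slc7a5 without WT replicate 1 (adjusted p = 0.0546), while that of Atf5 held in all 6 such fits. With replicates 1 and 2 summed, the adjusted p of these 4 ran from 0.104 to 0.142. Of 30 of the 36 genes with a promoter, 11 held the C/EBP-ATF element, and 2 of these 11 were lower, against 4 of the other 19.

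A further list of collagen-modifying genes gave calls in both directions. It held enzymes that act after export, the hydroxylysine glycosyltransferases, and P3h2 and P3h4 of the prolyl 3-hydroxylase family. Of 13 tested, 3 were higher and 3 lower (5 and 5 with the replicate block), and the median was 0.43. Loxl4, a crosslinking lysyl oxidase gene, fell by 1.58 on the log2 scale (edgeR adjusted p = 0.000677), while the related Loxl1 rose by 0.84 ± 0.13 (adjusted p = 0.00518, and 0.0979 with replicates 1 and 2 summed). The procollagen N-proteinase genes split as well, with Adamts2 at -1.17 ± 0.31 (adjusted p = 0.0377, lost without WT replicates 1 or 2 or TCKO replicates 1 or 2 at 0.0551 to 0.127) and Adamts14 at 1.19 ± 0.14 (adjusted p = 0.00129). Of the 9 fibrillar collagen genes, 5 were lower and 1 higher, with a median of -0.75. Col2a1, Col11a2 and Col11a1, collagens of cartilage, had log2 fold changes of -3.13 ± 0.17, -3.02 ± 0.27 and -2.10 ± 0.14 (edgeR adjusted p = 9.7e-05, 0.000455 and 0.000130), and Col5a3 one of 1.61 ± 0.22 (adjusted p = 0.00290, and 0.0741 with replicates 1 and 2 summed). Replicates 1 and 2 gave a Col5a3 difference of 1.86 and replicate 3 one of 0.76. The 5 chondrocyte markers other than Col2a1 were also called lower, from -4.45 ± 0.57 for Cnmd to -1.08 ± 0.17 for Sox9 on the log2 scale, and their part in the collagen values was not tested.

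**Figure D5:**
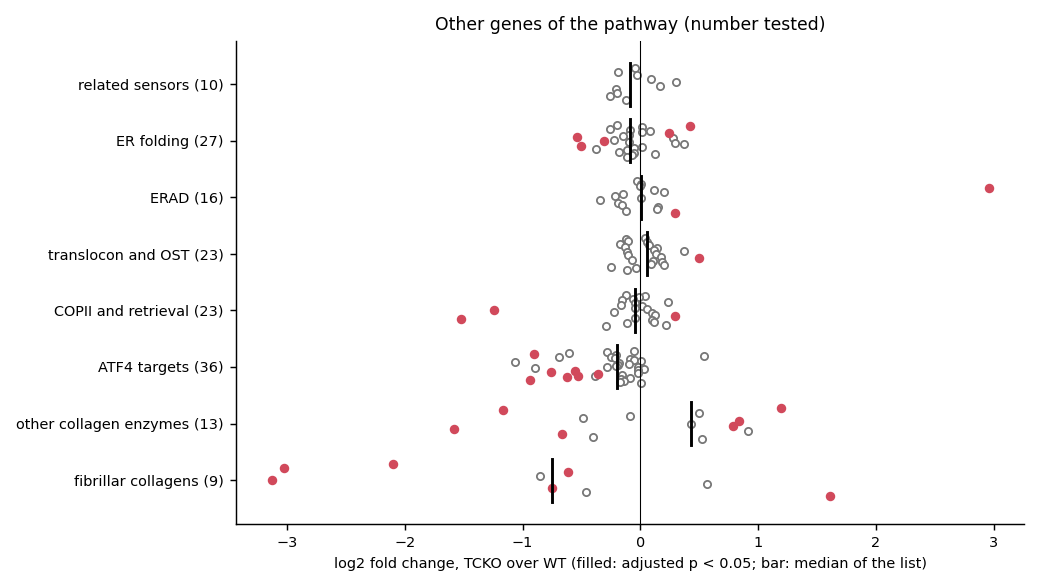
Log2 fold change (TCKO over WT, n = 3 libraries per genotype) of the tested genes of each further list, with filled points for an edgeR adjusted p under 0.05 and a bar at the median of the list. The medians of 6 lists lie between -0.20 and 0.05, with the fibrillar collagens at -0.75 and the other collagen enzymes at 0.43.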

How the data were processed

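Polyadenylated RNA was sequenced with a directional library kit, per the labels. The authors aligned reads to GRCm38 with STAR 2.7.0e, and the submitters' processing notes name featureCounts 2.0.0. The deposited values are raw counts per gene for 6 libraries. Whether counting used the strand is not given in the sources used here, so genes that overlap on opposite strands are less certain. Groups and replicate numbers came from the sample titles.

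Tests used edgeR 4.0.16 (R 4.3.3, limma 3.58.1). Genes passing filterByExpr were scaled by TMM and tested with the quasi-likelihood test over 3 against 3 libraries without covariates, with Benjamini-Hochberg adjustment over 13826 genes, and called at an adjusted p under 0.05. The study's fold change over 2 was applied as a further rule. Standard errors came from the F statistic. TPM used the deposited gene lengths. The code was tested on simulated data. DESeq2 1.42.0 was an alternative, as were RLE and upper-quartile scaling, no low-count filter, a mean of at least 50 counts, an RPKM over 0.24, a replicate block, sums of replicates 1 and 2, a batch term for replicate 3 and leaving out each library.

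The members, lists, tests and alternatives were chosen with earlier results of these data known. Values in every library were given for members with an adjusted p under 0.05 or a log2 fold change of at least 1, for sensors and their transcription factors and for the most abundant gene of each role group, and, for the further lists, at most 4 called genes each by size of change. Trib3 and Dnajc3 were added after their values were seen. Same-numbered libraries deviated together from their genotype means across 13826 genes (r = 0.204, 0.214 and 0.347 for replicates 1, 2 and 3), but WT 2 with TCKO 1 (0.225) and WT 1 with TCKO 2 (0.188) did so alike. These values set replicate 3 apart and do not pair replicates 1 and 2 one to one, nor do the labels. The fit with the number as a block is given on that basis. Replicates 1 and 2 differed beyond counting noise, but this does not show that they came from separate animals. Each counted as 1 library in the main fit, and fits with their counts summed are given beside it. Protein sequences were not used here.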

Additional observations from a re-analysis of the deposited data

How the results depend on the processing

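All 42 genes kept their direction under RLE and upper-quartile scaling, the 3 other filters on low counts, DESeq2 and the batch term, and the 12 calls were kept in all of these except Atf4 with upper-quartile scaling. Taking the replicate number as a block gave 3 higher and 9 lower genes, the same 12, and changed no other call among the 42, though Ddit3 went to -0.0010. Among all tested genes the block gave 1664 higher and 1585 lower, against 1254 and 1193. Of the 42 genes, the batch term called 5 higher and 11 lower. Summing replicates 1 and 2 called 0 higher and 0 lower (8 at an unadjusted p under 0.05, edgeR), and with a replicate block added 0 and 2. Leaving out 1 library gave 0 to 6 higher and 5 to 9 lower, and 0 genes over 2-fold in every fit. For the further lists the counts of 10 higher and 20 lower became 19 and 36 with the batch term, 2 and 4 with the sums, 5 and 10 with the sums and a replicate block, and 5 to 16 and 10 to 24 without 1 library. All tested genes gave 2190 higher and 2082 lower with the batch term, 217 and 169 with the sums, 584 and 566 with the sums and a replicate block, and 603 to 1613 and 550 to 1509 without 1 library. The sums leave 2 samples per genotype, and the cause of the other shifts was not tested.

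Genes that changed sign all lay near 0 and were never called. With the sums, and with the sums and a replicate block, Sec24d went to -0.050 and -0.062, Ddit3 to -0.042 and -0.060 and Dnajc3 to -0.0041 and -0.0042. Without 1 library, log2 fold changes ranged from -0.22 to 0.086 for P4ha1, -0.080 to 0.0084 for Serpinh1, -0.065 to 0.15 for Sec24d, -0.089 to 0.045 for Ctage5, -0.14 to 0.038 for Xbp1, -0.043 to 0.038 for Atf6, -0.079 to 0.18 for Ddit3 and -0.017 to 0.022 for Dnajc3. Standard errors of the 42 log2 fold changes ranged from 0.06 to 0.29, which limits the changes that 3 libraries per genotype could show.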

Other observations

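The 36 further ATF4 targets were also looked at by role, a grouping made after their values were seen and therefore without a test. The 3 amino acid transporter genes had negative log2 fold changes from -0.63 to -0.38, and 2 of them, Slc7a5 and Slc3a2, were called lower. Of 7 genes of serine, one-carbon and proline synthesis, Pycr1 and Psph were lower, 6 were negative and the median was -0.28. Psph shares 452 exonic bases with Cct6a on the opposite strand, whose counts were higher. The 12 aminoacyl-tRNA synthetase genes, which charge tRNAs with amino acids, had a median of -0.09 and a range from -0.21 to 0.01. None of these 12 was called by edgeR or DESeq2, and 2 had an unadjusted p under 0.05. Of the 5 transcription factor genes, Atf5 was lower and 4 were negative, while Cebpb was at 0.54 ± 0.25 (edgeR adjusted p = 0.181, and 0.0157 with the replicate block). Cebpb shares 312 exonic bases with Tmem189 on the opposite strand. Medians within replicate 3 were lower than within replicates 1 and 2 for all 4 roles, at -1.01 against -0.45 for the transporters and -0.28 against 0.01 for the synthetases.

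The UPRE core, TGACGTGG, the known core of the site that spliced XBP1 binds, was in the RefSeq promoters of 2 of the 36 genes, Sec23a and Sec24d, and of 0.714% of all genes with a promoter. Among 106 tested genes outside the 42 that held it, 5 were higher and 4 lower, with a median log2 fold change of -0.00, beside 9.45% and 9.10% of all tested genes with a promoter.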
